A study of Homo sapiens with 12 samples.

Results

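The cytokine and chemokine ligands TNF, CXCL1, CXCL2, CXCL3, CCL20, IL6 and LIF, the feedback inhibitors NFKBIA and TNFAIP3, and the NF-kB subunit RELB were followed in 2 ovarian cancer cell lines exposed to THZ1. These 10 genes are among the 23621 listed in the expression tables, and all 10 names were found. They were selected on measured values, since TNF, CXCL2 and CXCL3 were higher in COV362 cells at 250 nM THZ1 than in DMSO. The COV362 values of the 10 genes at 250 nM are therefore given as a description without a test. The other members and the pathway lists were also chosen with earlier results of these data known, a choice that the p-values given elsewhere do not allow for. KURAMOCHI (Ku) cells were grown in RPMI and COV362 (Cov) cells in DMEM, each with 10% fetal bovine serum, and both lines were untransduced. Each line received DMSO, 50 nM THZ1 or 250 nM THZ1 for 6 hr, with 2 replicates per group and 12 libraries in all. THZ1 is a covalent inhibitor of the transcriptional kinases CDK7, CDK12 and CDK13, and DMSO is its solvent. Polyadenylated RNA was sequenced with spike-in RNAs added in proportion to cell number, so that values refer to RNA per cell. Each is an established cell line, and nothing in the labels says that replicates came from separate thaws or days, so p-values measure the spread between these libraries only.

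NF-kB is a family of dimeric transcription factors that wait in the cytoplasm bound to IkB proteins. When TNF binds its receptor, adaptors and kinases mark IkB for destruction, and the freed dimers enter the nucleus and bind kB sites. Their targets include chemokines that attract neutrophils and lymphocytes, and also their own inhibitors: NFKBIA encodes IkB alpha and TNFAIP3 encodes the ubiquitin editing enzyme A20. Many of these transcripts are short-lived, and ovarian cancer cells are known to secrete several of the ligands.

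The labels were checked against markers. PAX8, a transcription factor of the Mullerian lineage, had an FPKM (fragments per kilobase, scaled for sequencing) of 140 and 132 in the Ku DMSO libraries and of 120 and 128 in the Cov DMSO libraries. The epithelial keratin KRT8 was at 2489 and 2375 in Ku and at 1066 and 1199 in Cov, and its partner KRT18 at 2193 and 2077 in Ku and at 744 and 841 in Cov. Other markers were uneven between the lines. WT1 was at 60.1 and 53.4 in Ku but at 0.565 and 0.741 in Cov. EPCAM was at 4.01 and 4.24 in Ku, KRT7 at 4.68 and 4.54, and MUC16 at 0.172 and 0.159. In Cov the same genes were at 150 and 174, at 1287 and 1423, and at 5.20 and 6.22. Of 5 leukocyte markers, PTPRC, CD3E, LYZ and ITGAM did not exceed 1 FPKM in any library, and CD14 did so only in Ku, where its highest value was 1.63. Of the 6 fibroblast and endothelial markers, COL1A1, COL1A2 and VWF passed 1 FPKM, and COL1A2 reached 40.4 and 44.1 in the Cov DMSO libraries.

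The sequences upstream of the start sites are shown because kB sites are where NF-kB binds in its target genes. RefSeq promoters (GRCh38.p14) were found for 8 of the 10 genes, all but LIF and RELB. The kB consensus, searched on both strands in the 300 bases from 250 before to 50 after the start, was present in 7 of the 8, against 11.3% of 35116 promoters. The pattern searched was GGG, A or G, any 2 letters, 2 letters of C or T, and CC. No exact match lay in the TNF window, though the TNF sequence holds gggtttctcc, which departs from that pattern at 1 letter. Looser sites were not searched, so what is absent from TNF is this pattern only. The letters TATAAA, which overlapped no kB match, were present in TNF, CCL20 and, on the opposite strand, NFKBIA, against 11.5% of promoters. The last 110 bases before the start are printed 5′ to 3′ on the strand of the gene, with every kB match in capitals. In CXCL1, CXCL2 and CXCL3 matches on the 2 strands overlap and are capitalized as 1 run of the same letters, at −79 to −69 in CXCL1 and CXCL3 and at −78 to −68 in CXCL2. The regions are chr6:31575455-31575564 for TNF, chr4:73869283-73869392 for CXCL1, chr4:74099196-74099305 (minus strand) for CXCL2 and chr4:74038690-74038799 (minus strand) for CXCL3. They are chr14:35404750-35404859 (minus strand) for NFKBIA and chr6:137867149-137867258 for TNFAIP3.
TNF: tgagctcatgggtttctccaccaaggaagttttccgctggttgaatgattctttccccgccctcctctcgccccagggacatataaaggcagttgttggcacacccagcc
CXCL1: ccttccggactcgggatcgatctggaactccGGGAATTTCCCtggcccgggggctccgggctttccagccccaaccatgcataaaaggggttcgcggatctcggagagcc
CXCL2: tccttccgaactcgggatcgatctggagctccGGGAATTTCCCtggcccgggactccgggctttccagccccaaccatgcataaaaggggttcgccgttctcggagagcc
CXCL3: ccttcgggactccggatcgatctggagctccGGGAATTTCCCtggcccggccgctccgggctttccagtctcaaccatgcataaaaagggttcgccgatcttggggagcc
NFKBIA: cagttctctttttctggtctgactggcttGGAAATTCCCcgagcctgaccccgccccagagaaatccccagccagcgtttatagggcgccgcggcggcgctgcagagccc
TNFAIP3: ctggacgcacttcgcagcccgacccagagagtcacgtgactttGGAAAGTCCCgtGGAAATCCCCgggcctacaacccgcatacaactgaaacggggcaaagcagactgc

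The 10 genes are short to moderate in length, from 1.92 kb for CXCL1 to 36.73 kb for RELB in GRCh37, the build of the alignment. CXCL1, CXCL2 and CXCL3 lie on chromosome 4, TNF and TNFAIP3 on chromosome 6. The CXCL transcripts resemble one another, but 75-base windows identical to another gene made up only 0.273% of CXCL1, 2.5% of CXCL2 and 2.3% of CXCL3. Genes on the opposite strand overlap IL6, LIF and TNFAIP3. The libraries were stranded, but whether counting used the strand is not given in the sources used here, and the part of antisense reads in these 3 values was not tested.

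All 10 genes exceeded 1 FPKM in each of the 12 libraries, so the filter for active genes, which kept 14251 genes with more than 1 FPKM in at least 1 library, removed none. In DMSO NFKBIA was the most abundant of the 10 in both lines, with a mean of 139 ± 14.2 FPKM in Ku and 99.0 ± 4.85 in Cov (SD, n = 2). In Ku CCL20 followed at 69.7 ± 0.619, then RELB at 44.3 ± 0.248 and CXCL1 at 41.5 ± 5.12, whose libraries overlapped. TNFAIP3 was next at 14.5 ± 0.591 FPKM. IL6 at 11.0 ± 1.18 overlapped with TNF at 9.65 ± 1.32, and LIF at 6.91 ± 1.43 overlapped with CXCL2 at 6.14 ± 0.12. CXCL3 was lowest at 2.47 ± 0.0245. In Cov TNFAIP3 was next at 48.9 ± 3.72, ahead of CCL20 at 36.3 ± 3.14. RELB at 32.5 ± 1.91 overlapped with LIF at 31.4 ± 1.18, and CXCL1 was at 26.2 ± 0.471. IL6 at 5.87 ± 0.348 overlapped with CXCL2 at 4.75 ± 1.34. CXCL3 at 2.41 ± 0.573 and TNF at 2.39 ± 0.421 overlapped and came last. The tables of the lines were normalized separately, so levels were not tested between lines. The tables hold no counts, so the depth behind each value is unknown.

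**Figure D1:**
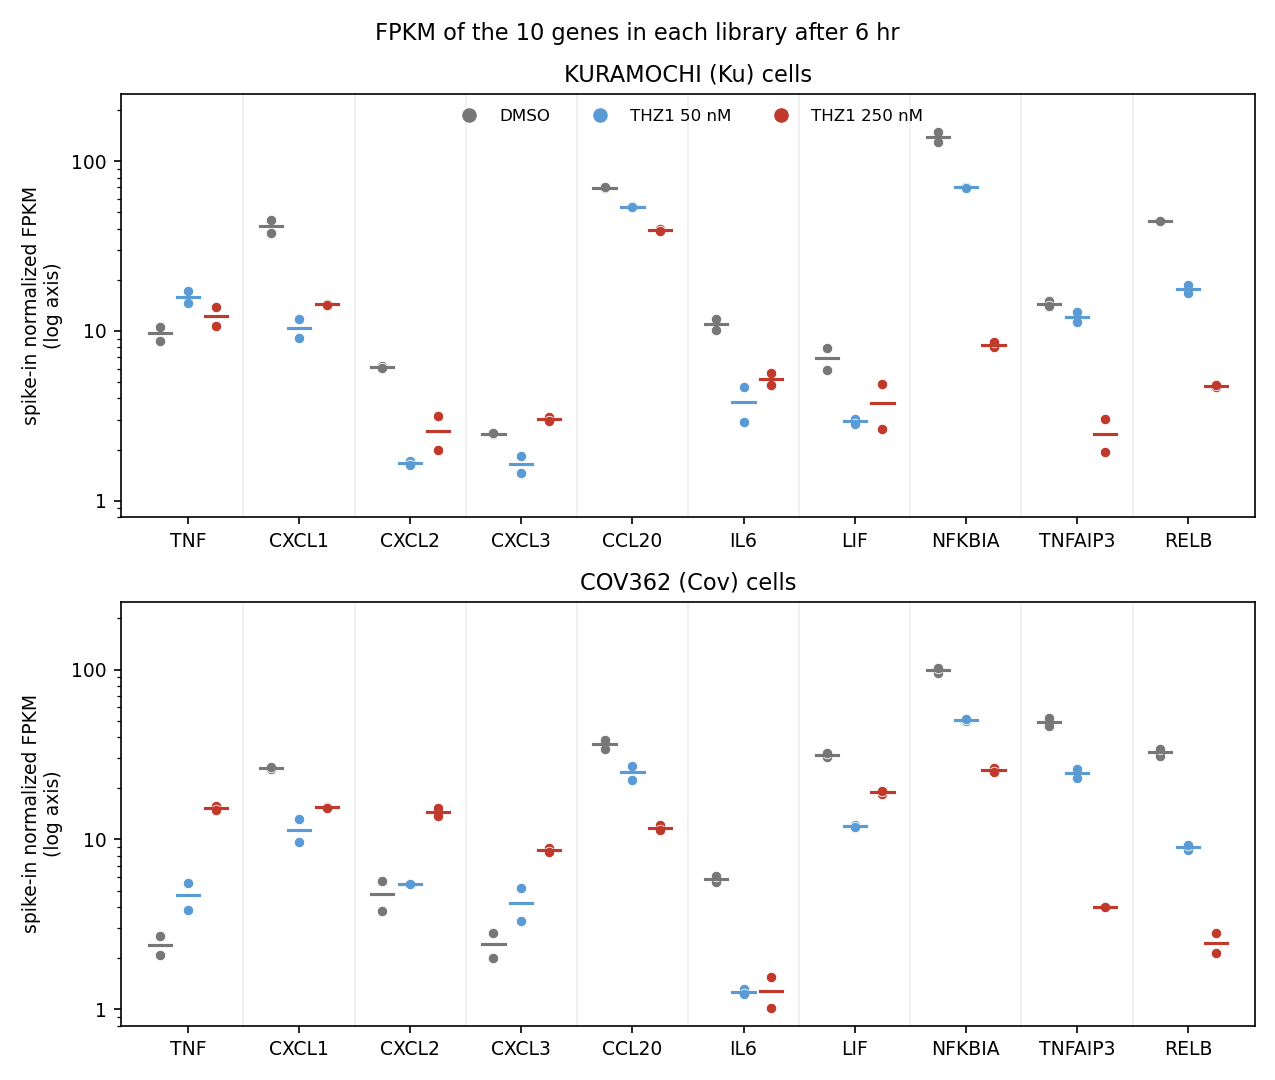
Spike-in normalized FPKM (log axis) of the 10 genes in each of the 6 libraries of KURAMOCHI (top) and COV362 (bottom) cells. Points are libraries and short lines are group means. TNF, CXCL2 and CXCL3 in COV362 are higher at 250 nM than in DMSO, by which they were chosen, while TNFAIP3 and RELB are lower at 250 nM in both lines, as is NFKBIA, whose COV362 direction flips with equal-median scaling.

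Most transcripts were lower per cell after THZ1, and the 10 genes have to be read against that shift. Log2 fold changes are on the log2(FPKM + 1) scale, which understates the change of genes with low values. Over all active genes the Ku median was −0.40 at 50 nM and −1.11 at 250 nM, and the Cov medians were −0.85 and −1.31. A call needed a limma adjusted p below 0.001 with a log2 fold change of more than 0.5 either way. In bulk RNA, fewer cells expressing a gene and less RNA per cell cannot be told apart. Scalings that force libraries to a common level moved these medians. With all libraries set to an equal median FPKM, the median difference became 0.10 and 0.29 in Ku and 0.12 and 0.31 in Cov, and with median-of-ratios scaling it was 0.02 and −0.0009 in Ku and 0.002 and 0.01 in Cov. Directions are given on the spike-in scale, and where a direction flips under another scaling this is said. Of 87 tested fold changes of named genes, 28 more lost their call without a flip with equal-median scaling and 23 with median-of-ratios scaling, and not all of these are repeated below.

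In Ku cells at 50 nM THZ1, 3 of the 10 genes were called lower (CXCL1, NFKBIA and RELB), where 11.3% of all active genes were, and none was called higher, where 0.0842% were. At an unadjusted p under 0.05 limma gave 8 lower and 1 higher, the latter being TNF, beside 8692 lower and 208 higher of all 14251 active genes. Leaving out any 1 DMSO or 50 nM library in turn left 0 of the 3 calls. Over all active genes the 1607 lower calls went to 55 without DMSO replicate 1, 131 without DMSO replicate 2, 12 without THZ1 50 nM replicate 1 and 7 without THZ1 50 nM replicate 2. With the equal-median scaling 0 were called lower, and with median-of-ratios scaling 1, where 105 and 388 of all 14251 active genes were. At 250 nM 5 of 10 were called lower (CXCL1, CCL20, NFKBIA, TNFAIP3 and RELB), where 68.6% of active genes were, and none was called higher, where 0.0491% were. The unadjusted p was under 0.05 for 8 lower and 0 higher, beside 12770 and 26 of all active genes. With the equal-median scaling the counts became 2 lower and 3 higher, and with median-of-ratios scaling 2 lower and 2 higher. Of all 14251 active genes 1654 were lower and 3831 higher with the former, and 2708 and 1577 with the latter.

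Cov cells were compared likewise. With 50 nM THZ1, 6 of the 7 genes other than TNF, CXCL2 and CXCL3 were called lower, where 70.5% of active genes were, and none was called higher, where 0.0772% were. The exception was CCL20, with an adjusted p of 0.00353 in limma. The unadjusted p was under 0.05 for 7 lower and 0 higher, beside 13038 and 57 of all active genes. Under either of the other scalings 0 of the 7 were called lower. Of all 14251 active genes 21 were with equal-median and 110 with median-of-ratios scaling. TNF, CXCL2 and CXCL3 were not tested in Cov, because they were chosen against the same DMSO libraries. At 250 nM in Cov 84% of active genes were called lower and 0.105% higher. The 10 genes are given there as values only. The shares of all active genes depend on single libraries. The 70.5% became 30.3% without COV362 DMSO replicate 2, and the 68.6% in Ku became 42.7% and 44.3% without KURAMOCHI THZ1 250 nM replicate 1 or 2.

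**Figure D2:**
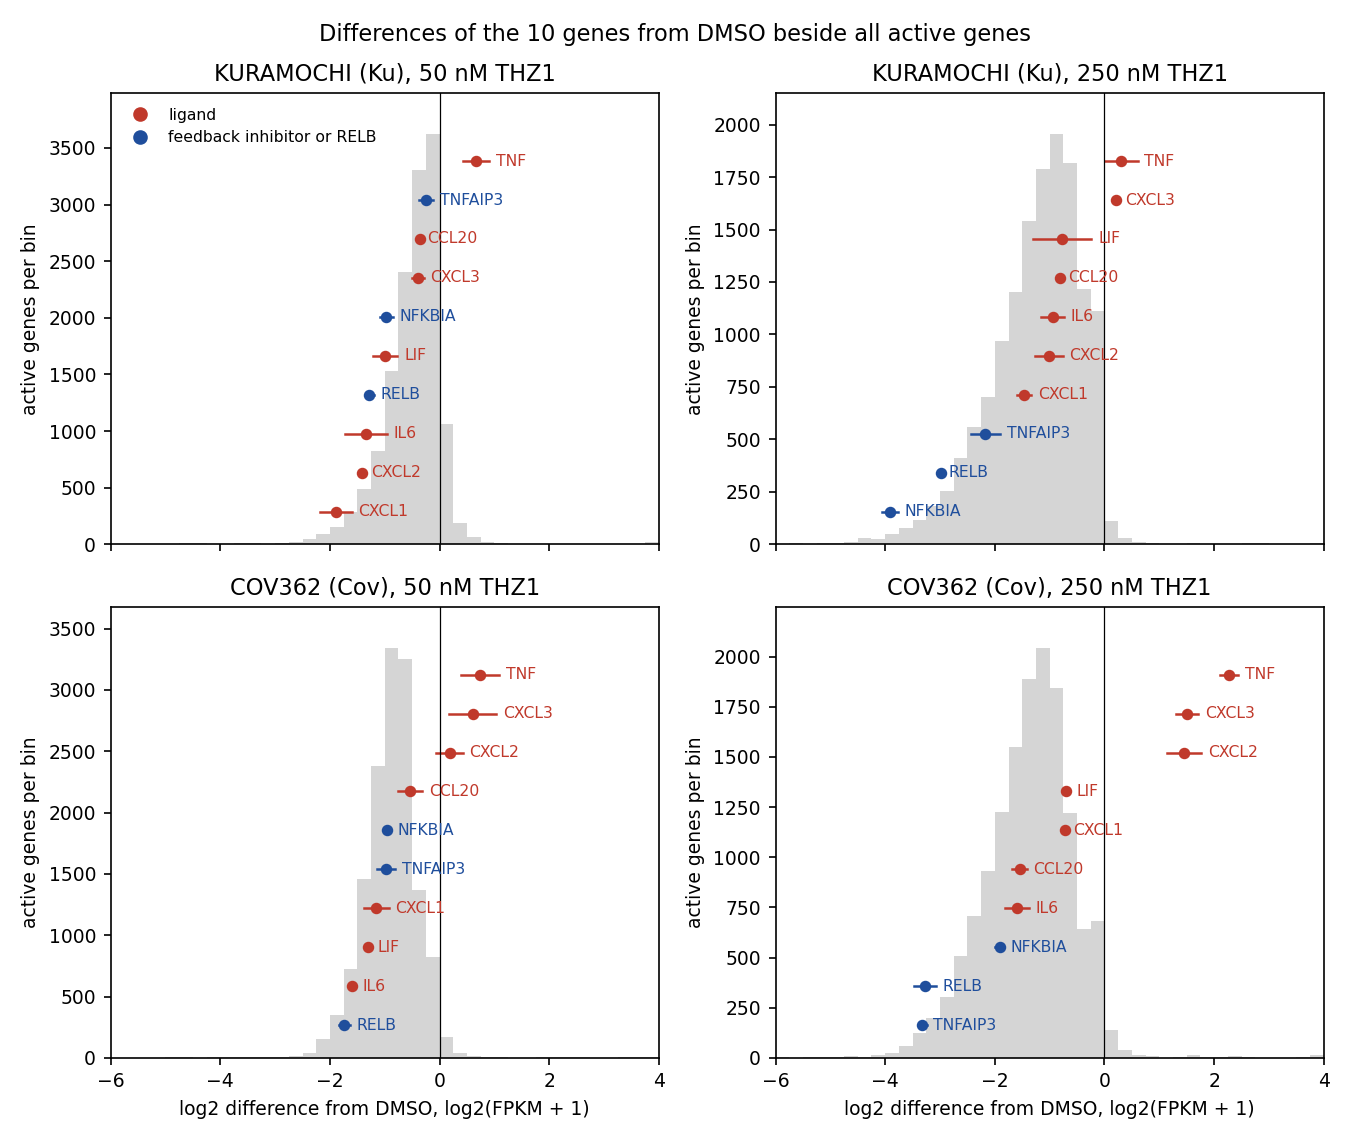
Log2 differences from DMSO of the 10 genes (points, with the range between single libraries of the groups as lines) over a histogram of all 14251 active genes, for each line and dose, on the log2(FPKM + 1) scale. Ligands are red, feedback inhibitors and RELB blue, and the height of a point has no meaning. TNF is the farthest right of the 10 in each panel, and at 250 nM the blue points lie left of the median of all genes.

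TNF, the ligand that starts the pathway, was at 10.6 and 8.72 FPKM in the Ku DMSO libraries, at 14.7 and 17.1 at 50 nM and at 10.7 and 13.8 at 250 nM. Every treated Ku library was above both DMSO libraries, at 250 nM by as little as 0.01 on the log2 scale for the closest pair. The log2 fold change was 0.67 at 50 nM (95% CI 0.27 to 1.07, limma adjusted p = 0.0158) and 0.31 at 250 nM (95% CI −0.09 to 0.71, adjusted p = 0.117), so neither passed the threshold. Leaving out 1 library took the 250 nM value to between 0.14 and 0.48. With equal-median and median-of-ratios scaling, which raise every one of the 10 values at 250 nM, it was 2.12 and 1.64 and was called higher. Only 0.744% of active genes at 50 nM and 0.519% at 250 nM had a larger value. In Cov TNF was at 2.69 and 2.09 in DMSO, at 3.85 and 5.56 at 50 nM and at 15.8 and 15.0 at 250 nM. The 3 Cov groups did not overlap, and the mean at 250 nM was 6.44 times that in DMSO. The Cov log2 difference was 0.74 at 50 nM and 2.28 at 250 nM, with pairs of libraries from 2.12 to 2.44. It became 1.52 and 1.42 at 50 nM with equal-median and median-of-ratios scaling, and 3.89 and 3.53 at 250 nM.

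CXCL2 and CXCL3 encode neutrophil attractants that signal through the receptor CXCR2. In Ku CXCL2 was at 6.22 and 6.06 FPKM in DMSO, at 1.72 and 1.61 at 50 nM and at 1.98 and 3.16 at 250 nM. The treated Ku libraries were all below the DMSO libraries, by −1.42 at 50 nM (limma adjusted p = 0.00155) and −1.02 at 250 nM (adjusted p = 0.00188), which misses the threshold. At 250 nM this value turned to 0.56 with equal-median and 0.14 with median-of-ratios scaling. In Cov CXCL2 was at 5.70 and 3.80 in DMSO, at 5.45 and 5.44 at 50 nM and at 15.3 and 13.8 at 250 nM. The 50 nM libraries lay between the 2 DMSO libraries, with a log2 difference of 0.18 that became −0.06 without COV362 DMSO replicate 2 and 0.43 without replicate 1. The 250 nM libraries lay above all others, with a log2 difference of 1.46. The Cov differences were 1.12 and 0.99 at 50 nM with equal-median and median-of-ratios scaling. At 250 nM they were 3.22 and 2.83.

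CXCL3 was at 2.46 and 2.49 FPKM in Ku DMSO, at 1.46 and 1.83 at 50 nM and at 3.12 and 2.95 at 250 nM. The Ku libraries at 50 nM were below DMSO and those at 250 nM above it. Neither value passed the threshold, with log2 fold changes of −0.40 (limma adjusted p = 0.0327) and 0.22 (adjusted p = 0.131). With equal-median scaling the 50 nM value turned to 0.07. The 250 nM value was 1.68 and 1.29 with equal-median and median-of-ratios scaling, and was called higher there. In Cov CXCL3 was at 2.01 and 2.82 in DMSO, at 3.31 and 5.16 at 50 nM and at 8.85 and 8.48 at 250 nM. The 3 groups did not overlap in Cov, with log2 differences of 0.61 and 1.51. The 50 nM value was 0.35 without COV362 THZ1 50 nM replicate 2 and 0.86 without replicate 1. The Cov differences were 1.38 and 1.28 at 50 nM with equal-median and median-of-ratios scaling. At 250 nM they were 3.09 and 2.74.

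CXCL1, a chemokine gene of the same cluster, was lower in all treated libraries of both lines on the spike-in scale, a direction that flips with equal-median scaling at 250 nM in both lines and at 50 nM in Cov. In Ku it was at 45.2 and 37.9 FPKM in DMSO, at 11.8 and 9.11 at 50 nM and at 14.4 and 14.3 at 250 nM. The Ku log2 fold change was −1.90 at 50 nM (95% CI −2.25 to −1.55, limma adjusted p = 0.000379) and −1.47 at 250 nM (95% CI −1.82 to −1.12, adjusted p = 0.000123). The 50 nM call was lost without KURAMOCHI DMSO replicate 1 or 2 (−1.77 and −2.02) or THZ1 50 nM replicate 1 or 2 (−2.07 and −1.73). The 250 nM call was lost without either KURAMOCHI THZ1 250 nM replicate, at log2 fold changes of −1.47 and −1.46, and the value turned to 0.44 with equal-median scaling. In Cov CXCL1 was at 25.9 and 26.5 in DMSO, at 9.6 and 13.1 at 50 nM and at 15.5 and 15.4 at 250 nM. The Cov 50 nM fold change was −1.15 (95% CI −1.48 to −0.83, adjusted p = 0.000174), a call lost without either COV362 DMSO replicate, at −1.17 and −1.14. With equal-median scaling it turned to 0.0013. In each line both 250 nM libraries were above both 50 nM libraries, a difference between doses that was not tested. At 250 nM in Cov the difference from DMSO was −0.72, and it turned to 1.25 and 0.81 with equal-median and median-of-ratios scaling.

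CCL20 attracts lymphocytes and dendritic cells through CCR6. It was at 69.3 and 70.1 FPKM in Ku DMSO, at 54.3 and 53.4 at 50 nM and at 39.8 and 38.9 at 250 nM. The Ku groups followed the dose without overlap. The log2 fold change was −0.37 at 50 nM (limma adjusted p = 0.00306, short of the threshold) and −0.81 at 250 nM (95% CI −0.95 to −0.67, adjusted p = 3.49e-05). In Cov CCL20 was at 34.1 and 38.6 in DMSO, at 22.5 and 27.2 at 50 nM and at 12.1 and 11.3 at 250 nM, again without overlap. The Cov log2 difference was −0.53 at 50 nM and −1.55 at 250 nM. The direction of CCL20 flipped in Ku under both scalings, to 0.33 and 0.18 at 50 nM and to 1.14 and 0.62 at 250 nM. The Ku 250 nM value, called lower on the spike-in scale, was called higher with equal-median scaling. In Cov it flipped to 0.64 and 0.46 at 50 nM, and to 0.43 at 250 nM with the equal-median scaling alone.

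IL6 and LIF, cytokines that share the receptor subunit encoded by IL6ST, were lower in all treated libraries on the spike-in scale, though several of these directions flip with scaling. IL6 was at 11.8 and 10.2 FPKM in Ku DMSO, at 4.70 and 2.89 at 50 nM and at 5.67 and 4.78 at 250 nM. Neither Ku value was called, with log2 fold changes of −1.34 (limma adjusted p = 0.00332) and −0.95 (adjusted p = 0.0056). In Cov IL6 was at 5.63 and 6.12 in DMSO, at 1.31 and 1.22 at 50 nM and at 1.02 and 1.54 at 250 nM. IL6 fell in Cov at 50 nM, its log2 fold change being −1.60 (95% CI −1.90 to −1.30, adjusted p = 3.67e-05), and the difference at 250 nM was also −1.60. LIF was at 7.92 and 5.89 in Ku DMSO, at 3.05 and 2.84 at 50 nM and at 2.63 and 4.85 at 250 nM. Its Ku log2 fold changes of −0.99 (adjusted p = 0.0191) and −0.77 (adjusted p = 0.0283) were not called, and the latter was −0.42 without KURAMOCHI THZ1 250 nM replicate 1 and −1.11 without replicate 2. In Cov LIF was at 30.6 and 32.2 in DMSO, at 12.2 and 11.9 at 50 nM and at 18.6 and 19.3 at 250 nM. It fell at 50 nM, at −1.31 (95% CI −1.51 to −1.12, adjusted p = 2.25e-05), and the 250 nM libraries, at −0.70, lay between the other groups. With equal-median and median-of-ratios scaling the 250 nM values flipped for IL6 in Ku (0.81 and 0.34), and for LIF in Ku (0.88 and 0.44) and in Cov (1.29 and 0.85). Both Cov calls at 50 nM were lost under these scalings, at −0.65 and −0.80 for IL6 and −0.15 and −0.33 for LIF.

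Of the feedback inhibitors, IkB alpha holds NF-kB dimers in the cytoplasm and A20 edits ubiquitin chains on the adaptors. NFKBIA was at 149 and 129 FPKM in Ku DMSO, at 70.7 and 69.2 at 50 nM and at 8.0 and 8.61 at 250 nM. NFKBIA fell at both doses in Ku, with log2 fold changes of −0.98 (95% CI −1.19 to −0.76, limma adjusted p = 0.000564) and −3.91 (95% CI −4.13 to −3.69, adjusted p = 5.08e-06). The 50 nM call was lost without KURAMOCHI DMSO replicate 1 or 2 (−0.87 and −1.08) or THZ1 50 nM replicate 1 or 2 (−0.99 and −0.96). Its mean in Ku DMSO was 16.8 times that at 250 nM, and 0.821% of active genes had a lower value there. In Cov it was at 95.6 and 102 in DMSO, at 49.6 and 51.0 at 50 nM and at 26.2 and 24.8 at 250 nM. The Cov groups did not overlap, and the 50 nM log2 fold change was −0.96 (95% CI −1.16 to −0.77, adjusted p = 4.43e-05), beside a difference of −1.91 at 250 nM. In Cov the direction flipped at 50 nM to 0.24 and 0.05 with equal-median and median-of-ratios scaling, and at 250 nM to 0.12 with the former.

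TNFAIP3 was at 14.9 and 14.1 FPKM in Ku DMSO, at 12.9 and 11.3 at 50 nM and at 1.93 and 3.02 at 250 nM. The 50 nM value of −0.25 in Ku was not called (limma adjusted p = 0.278). It was −0.16 without KURAMOCHI THZ1 50 nM replicate 2, and it flipped to 0.40 and 0.27 with the other scalings. At 250 nM TNFAIP3 fell in Ku, at −2.17 (95% CI −2.61 to −1.74, adjusted p = 6.08e-05). This value shrank to −0.52 with equal-median and −0.96 with median-of-ratios scaling, and the call was lost under both. In Cov TNFAIP3 was at 46.3 and 51.5 in DMSO, at 23.0 and 26.1 at 50 nM and at 3.99 and 3.98 at 250 nM. All treated Cov libraries were below DMSO, with −0.97 at 50 nM (95% CI −1.21 to −0.73, adjusted p = 9.84e-05) and −3.32 at 250 nM. The 50 nM call was lost without COV362 DMSO replicate 2, at −0.89, and the value flipped to 0.22 and 0.03 with the other scalings.

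RELB, a subunit of the noncanonical NF-kB dimer and itself an NF-kB target, was at 44.1 and 44.5 FPKM in Ku DMSO, at 16.6 and 18.7 at 50 nM and at 4.70 and 4.79 at 250 nM. RELB fell in Ku, with −1.28 at 50 nM (95% CI −1.51 to −1.06, limma adjusted p = 0.000351) and −2.98 at 250 nM (95% CI −3.20 to −2.76, adjusted p = 6.55e-06). In Cov it was at 31.1 and 33.8 in DMSO, at 8.72 and 9.32 at 50 nM and at 2.13 and 2.80 at 250 nM. The groups followed the dose without overlap in both lines, with −1.74 in Cov at the lower dose (95% CI −2.03 to −1.45, adjusted p = 2.62e-05) and −3.28 at 250 nM. The Ku 50 nM call was lost without KURAMOCHI DMSO replicate 1 or 2 (−1.29 and −1.28) or THZ1 50 nM replicate 1 or 2 (−1.20 and −1.36). With equal-median and median-of-ratios scaling the 50 nM values shrank to −0.59 and −0.74 in Ku and to −0.58 and −0.76 in Cov, and both calls were lost. At 250 nM they were −1.16 and −1.65 in Ku, still called, and −1.47 and −1.87 in Cov.

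**Figure D3:**
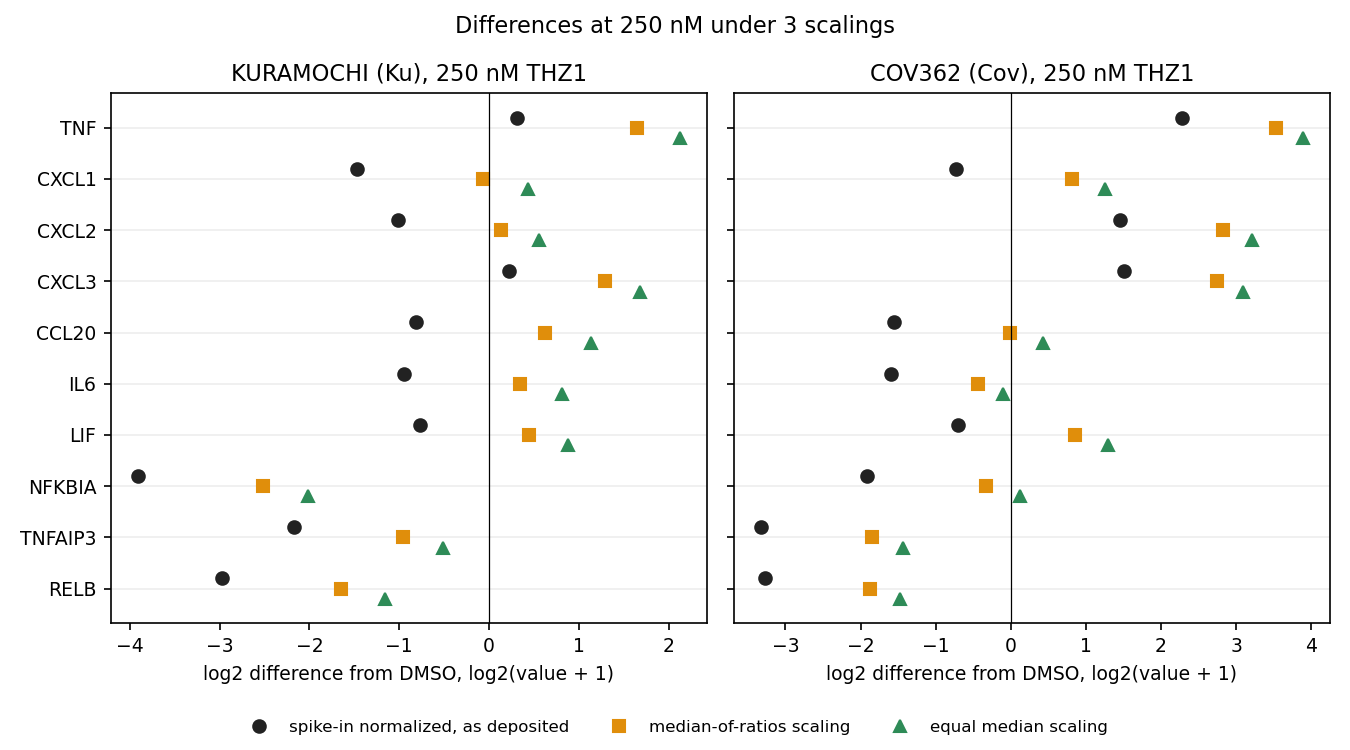
Log2 differences from DMSO at 250 nM of the 10 genes in KURAMOCHI (left) and COV362 (right) under the deposited spike-in normalization (circles), median-of-ratios scaling (squares) and scaling to an equal median (triangles). Both other scalings move every gene to the right. TNFAIP3 and RELB are to the left of 0 under all 3, and CXCL1, CCL20 and LIF cross 0 in both lines.

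Relative to the median of all active genes, TNF and CXCL3 lay above and NFKBIA, TNFAIP3 and RELB below at 250 nM in both lines. In Ku the difference minus that median was 1.42 for TNF and 1.33 for CXCL3, and −2.80 for NFKBIA, −1.06 for TNFAIP3 and −1.87 for RELB. The other Ku ligands were closer to the median, from −0.36 for CXCL1 to 0.34 for LIF. In Cov the corresponding values were 3.58 for TNF, 2.76 for CXCL2 and 2.82 for CXCL3, which chose the genes, and −0.61 for NFKBIA, −2.01 for TNFAIP3 and −1.97 for RELB. The other Cov ligands were between −0.29 for IL6 and 0.61 for LIF.

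The order of FPKM levels at 250 nM differed from that in DMSO. In Ku the means were 39.4 for CCL20, 14.3 for CXCL1, 12.2 for TNF and 8.30 for NFKBIA, then 5.22 for IL6 and 4.74 for RELB. LIF at 3.74, CXCL3 at 3.04, CXCL2 at 2.57 and TNFAIP3 at 2.48 followed, each of the last 6 overlapping with its neighbour in the order. In Cov NFKBIA at 25.5 and LIF at 18.9 came before CXCL1 at 15.5, TNF at 15.4 and CXCL2 at 14.6, which overlapped. CCL20 at 11.7, CXCL3 at 8.67, TNFAIP3 at 3.98, RELB at 2.47 and IL6 at 1.28 came last. TNF, last together with CXCL3 in Cov DMSO, was above CCL20, TNFAIP3 and RELB at 250 nM.

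Ratios of 2 genes inside 1 library do not change when all values of a library are multiplied by 1 factor. With 1 factor over a common floor, no gene would lie below that floor. In KURAMOCHI THZ1 250 nM replicate 1, 5276 genes shared a value of 0.0783 FPKM, but PPBP was at 0.0777 and ATP6V1G2-DDX39B at 0.0727. The ratios of genes at unlike levels may therefore depend on the spike-in normalization, by an amount that was not tested. The ratio of TNF to NFKBIA FPKM was 0.0710 and 0.0675 in Ku DMSO, 0.207 and 0.247 at 50 nM and 1.33 and 1.61 at 250 nM. TNF mRNA thus passed NFKBIA mRNA in level at 250 nM in Ku. In Cov the ratio was 0.0281 and 0.0204 in DMSO, 0.0776 and 0.109 at 50 nM and 0.601 and 0.603 at 250 nM. The ratio of TNF to TNFAIP3 was 0.711 and 0.620 in Ku DMSO and 5.53 and 4.58 at 250 nM. In Cov it was 0.0580 and 0.0405 in DMSO and 3.95 and 3.76 at 250 nM. Both TNF ratios were ordered by dose without overlap in both lines. The ratio of CXCL2 to NFKBIA was so ordered in Cov but not in Ku. In Ku it was 0.0417 and 0.0469 in DMSO, 0.0243 and 0.0233 at 50 nM and 0.248 and 0.367 at 250 nM. The ratio of CXCL2 to TNFAIP3 in Ku was also lowest at 50 nM, at 0.133 and 0.143, against 0.418 and 0.431 in DMSO. A ratio shows unequal change only, and the Cov ratios include genes that chose the set.

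**Figure D4:**
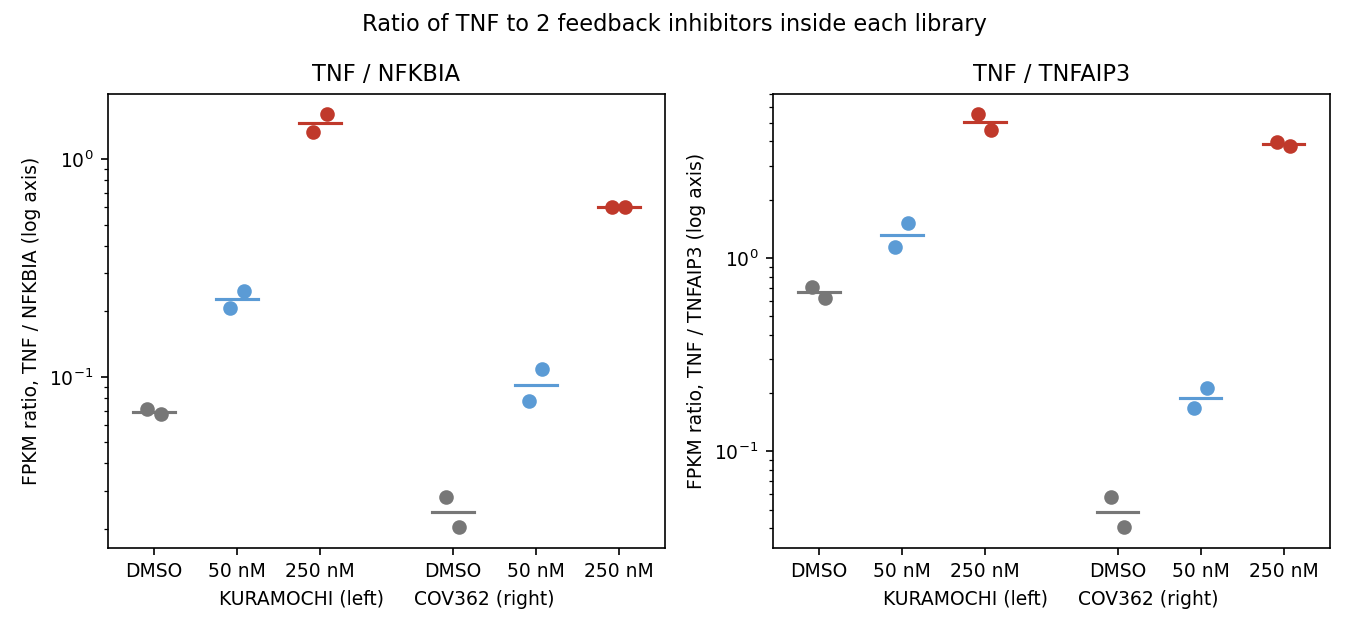
Ratio of TNF FPKM to NFKBIA FPKM (left) and to TNFAIP3 FPKM (right) inside each library, on log axes. Points are libraries and lines are geometric means of 2. In both lines each ratio is lowest in DMSO and highest at 250 nM, where TNF/NFKBIA reaches 1.33 and 1.61 in KURAMOCHI and 0.601 and 0.603 in COV362.

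The remaining genes of the pathway were taken as 6 lists with 79 genes, of which 72 were active. At 250 nM 57 of the 72 were called lower in Ku, where 68.6% of all active genes were, and 67 in Cov, where 84% were. Of the 72, 6 other targets passed the filter only through Cov and were no higher than 0.490 FPKM in Ku. They could hardly be called there, and they enter the Ku counts and median. Among genes above 1 FPKM in at least 1 library of the line, 74.9% in Ku and 88.7% in Cov were called lower. None of the 72 was called higher in Ku, where limma gave 0 with a positive fold change at an unadjusted p under 0.05, and 2 were in Cov. The median log2 fold change of the 72 was −1.40 in Ku and −1.76 in Cov, beside −1.11 and −1.31 over all active genes. At 50 nM 12 of the 72 were called lower in Ku, where 11.3% of all active genes were, and 58 in Cov, where 70.5% were. Among genes above 1 FPKM in the line itself these shares were 12.3% and 74.4%. The calls depend on the scaling. With equal-median scaling 9 were lower and 16 higher in Ku at 250 nM, and 16 lower and 10 higher in Cov. With median-of-ratios scaling 17 were lower and 7 higher in Ku, and 28 lower and 5 higher in Cov. Over all active genes the split of calls moved likewise, from 9774 lower and 7 higher in Ku to 1654 and 3831, or to 2708 and 1577. In Cov it moved from 11971 lower and 15 higher to 1611 and 3764, or to 2694 and 1221. Without any 1 of the 4 libraries compared, the Ku 50 nM count of 12 went to 0. The Cov 50 nM count of 58 went to 33 without COV362 DMSO replicate 2.

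Among receptors, 5 of 8 were active and all 5 were called lower in both lines at 250 nM, where 68.6% of all active genes in Ku and 84% in Cov were. TNFRSF1A, the main receptor for TNF, was at 78.1 and 68.4 FPKM in Ku DMSO and at 2.58 and 2.74 at 250 nM, and at 73.4 and 81.7 and then 3.44 and 4.09 in Cov. It fell in both lines, with log2 fold changes of −4.34 in Ku (95% CI −4.58 to −4.10, limma adjusted p = 5.08e-06) and −4.04 in Cov (95% CI −4.31 to −3.77, adjusted p = 8.16e-07). The ratio of TNF to TNFRSF1A went from 0.136 and 0.127 to 4.14 and 5.04 in Ku, and from 0.0366 and 0.0256 to 4.58 and 3.66 in Cov. The other TNF receptor TNFRSF1B fell as well, with −0.66 in Ku and −2.31 in Cov. In Ku TNFRSF1B was low from the start, at 1.04 and 0.841 FPKM in DMSO and at 0.218 and 0.228 at 250 nM. In Cov it was at 7.66 in both DMSO libraries and at 0.667 and 0.828 at 250 nM. The receptors of IL6 and LIF fell as well on the spike-in scale, with −1.50 and −1.33 for IL6R, −1.05 and −1.56 for IL6ST, and −1.54 and −1.29 for LIFR in Ku and Cov. With equal-median scaling IL6ST and LIFR flipped in both lines and IL6R in Ku, and with median-of-ratios scaling IL6ST flipped in Ku. The Ku calls of IL6R, IL6ST and TNFRSF1B were lost without either KURAMOCHI THZ1 250 nM replicate, at −1.54 and −1.47, −1.06 and −1.04, and −0.66 and −0.67. CXCR1 and CXCR2, receptors of the CXCL ligands, were at 0.0783 to 0.119 FPKM in the DMSO and 250 nM libraries, values that 5276 genes share in each Ku library and 4896 in each Cov library, so they are not read as levels. CCR6 was below 1 FPKM in those libraries.

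Of the 18 adaptors and kinases that carry the signal from the receptors, 17 were called lower in Ku and 18 in Cov at 250 nM, beside the same 68.6% and 84% of all active genes. TRAF2, BIRC2 and RIPK1, which assemble on the TNF receptor, had the largest falls in Ku, with −2.71, −2.47 and −2.44. In Cov the largest were those of MAP3K14, the kinase of the noncanonical arm, of RIPK1 and of BIRC2, with −3.43, −3.16 and −2.91. MAP3K14 went from 17.1 and 18.1 FPKM to 0.598 and 0.867 there. Its Ku value was −2.17, and TRAF2 had −2.59 in Cov. All 4 of the other NF-kB subunits were called lower in both lines, again beside 68.6% and 84%. RELA had −2.29 in Ku and −2.31 in Cov, NFKB2 had −1.87 and −2.82, NFKB1 had −1.07 and −2.25, and REL had −1.51 and −1.15. With equal-median scaling NFKB1 and NFKB2 flipped in Ku and REL in Cov, and with median-of-ratios scaling NFKB1 flipped in Ku and REL in Cov. Without KURAMOCHI THZ1 250 nM replicate 1 or 2 the Ku calls of NFKB1 (−1.08 and −1.06) and REL (−1.42 and −1.60) were lost, the latter also without KURAMOCHI DMSO replicate 1 (−1.35).

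The inhibitors other than NFKBIA and TNFAIP3 numbered 11. At 250 nM 9 of 11 were called lower in Ku, where 68.6% of all active genes were, and 10 of 11 in Cov, where 84% were. BCL3, an atypical IkB protein, was at 13.8 and 15.9 FPKM in Ku DMSO and at 0.417 and 0.494 at 250 nM, a log2 fold change of −3.44 beside −2.75 in Cov. NFKBIE, another IkB, had −2.94 in Ku and −3.17 in Cov. The deubiquitinase OTUD7B had −2.68 and −3.16. NFKBIZ was called in neither line (−0.29, adjusted p = 0.277 in Ku, and −0.51, adjusted p = 0.00121 in Cov, limma), nor was TAX1BP1 in Ku (−0.44, adjusted p = 0.00358). These 3 directions flip under the other scalings, for NFKBIZ to 1.33 and 0.90 in Ku and 1.35 and 0.94 in Cov, and for TAX1BP1 to 1.52 and 1.00 in Ku. All of these flipped values were called higher, except that of NFKBIZ in Ku with median-of-ratios scaling. These last genes are named after their values were seen.

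The other NF-kB targets include chemokines, adhesion molecules and survival genes. Of 31 listed, 27 were active. At 250 nM 15 of the 27 were called lower in Ku, where 68.6% of all active genes were, and 25 in Cov, where 84% were. TRAF1, BCL2A1, CXCL5, CXCL6, CCL5 and CSF2 passed the filter only through Cov and were no higher than 0.490 FPKM in any Ku library, so 21 remain in Ku. Of all genes above 1 FPKM in at least 1 Ku library 74.9% were called lower, beside 15 of these 21. CXCL8, the neutrophil chemokine listed as IL8, was at 75.8 and 62.2 FPKM in Ku DMSO and at 31.3 and 28.4 at 50 nM, where it fell (−1.18, limma adjusted p = 0.000582), a call lost with either of the other scalings (−0.48 and −0.63). At 250 nM it was at 74.9 and 72.8, overlapping with DMSO, with a log2 fold change of 0.10 (95% CI −0.16 to 0.37, limma adjusted p = 0.384) that became −0.04 without KURAMOCHI DMSO replicate 2. With equal-median and median-of-ratios scaling the 250 nM value was 2.06 and 1.54 and was called higher. In Cov CXCL8 was at 130 and 151 in DMSO and at 35.4 and 27.0 at 250 nM, a log2 fold change of −2.14. That call was lost with equal-median (−0.10) and median-of-ratios (−0.55) scaling. IER3, an early response gene of cell survival, was at 114 and 112 in Ku DMSO and at 106 and 119 at 250 nM (−0.01, adjusted p = 0.925). In Cov it was at 160 and 168 in DMSO, at 114 and 108 at 50 nM and at 299 and 311 at 250 nM. It fell at 50 nM on the spike-in scale (−0.56, adjusted p = 0.000387), a direction that flips to 0.66 and 0.47 with the other scalings, and rose by 0.89 at 250 nM (95% CI 0.70 to 1.08, adjusted p = 2.1e-05). The Ku value of IER3 was positive without KURAMOCHI DMSO replicate 1 (0.0019) or THZ1 250 nM replicate 1 (0.07). It became 1.96 and 1.44 with equal-median and median-of-ratios scaling, and was called higher under both.

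The largest falls among these targets in Ku were those of the transcription factor IRF1 (−3.18), the macrophage growth factor CSF1 (−1.97) and the coagulation initiator F3 (−1.88). IRF1 and CSF1 had −2.48 and −2.19 in Cov. In Cov the largest were those of the apoptosis inhibitor BIRC3 (−3.59), the T cell attractant CXCL10 (−3.46) and F3 (−3.26). CXCL10 went from 41.8 and 46.1 FPKM to 3.31 and 2.85 there. In Ku BIRC3 and CXCL10 were low from the start, BIRC3 at 1.04 and 0.798 FPKM and CXCL10 at 1.37 and 0.754 in DMSO, with −0.57 (called) and −0.51 (adjusted p = 0.0133 in limma). The BIRC3 call was lost without KURAMOCHI DMSO replicate 1 (−0.48) or either KURAMOCHI THZ1 250 nM replicate (−0.61 and −0.53). CXCL10 was called without KURAMOCHI DMSO replicate 2 (−0.73), and was at −0.30 without replicate 1. The chemokines CXCL5 and CCL5 stayed below 1 FPKM in the Ku libraries at DMSO and 250 nM, and had −1.30 and −1.32 in Cov, both called. With equal-median scaling CXCL5 and CCL5 turned positive in Cov and BIRC3 and CXCL10 in Ku, and with median-of-ratios scaling CXCL5 and CCL5 did in Cov and CXCL10 in Ku. The Ku calls of CSF1 and F3 and the Cov calls of IRF1 and CSF1 were not kept under every setting tried.

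Proteins that bind AU-rich elements or stem loops in cytokine mRNAs and set their decay were the last list. All 7 were called lower in Ku at 250 nM, where 68.6% of all active genes were. In Cov 5 were called lower and 1 higher, where 84% and 0.105% were. ZFP36, which encodes the decay factor tristetraprolin, was at 18.9 and 17.1 FPKM in Ku DMSO and at 3.22 and 4.71 at 250 nM. In Cov it was at 10.5 and 11.0 in DMSO and at 18.5 and 19.9 at 250 nM. The log2 fold change was −1.95 in Ku (95% CI −2.35 to −1.55, limma adjusted p = 6.77e-05) and 0.78 in Cov (95% CI 0.51 to 1.06, adjusted p = 0.000365). The Cov call was lost without COV362 DMSO replicate 1 or 2 (0.75 and 0.81) or THZ1 250 nM replicate 1 or 2 (0.83 and 0.73), and with a replicate block, which takes the 2 genes called higher to 1. The Ku call was lost with equal-median (−0.20) and median-of-ratios (−0.66) scaling. Its relatives ZFP36L1 and ZFP36L2 fell in both lines, with −2.47 and −4.19 in Ku and −2.17 and −2.25 in Cov. The calls of ZFP36L1 in both lines and of ZFP36L2 in Cov were not kept under every setting tried. HNRNPD had −1.45 and −1.67, called in both lines, and turned positive in both lines with equal-median scaling. ZC3H12A, the endonuclease Regnase-1, fell in Ku, with −1.98, a call not kept under every setting tried. In Cov ZC3H12A was at 4.18 and 4.5 in DMSO and 3.90 and 4.02 at 250 nM (−0.11, limma adjusted p = 0.314). That Cov value became 1.54 and 1.17 with the other scalings.

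**Figure D5:**
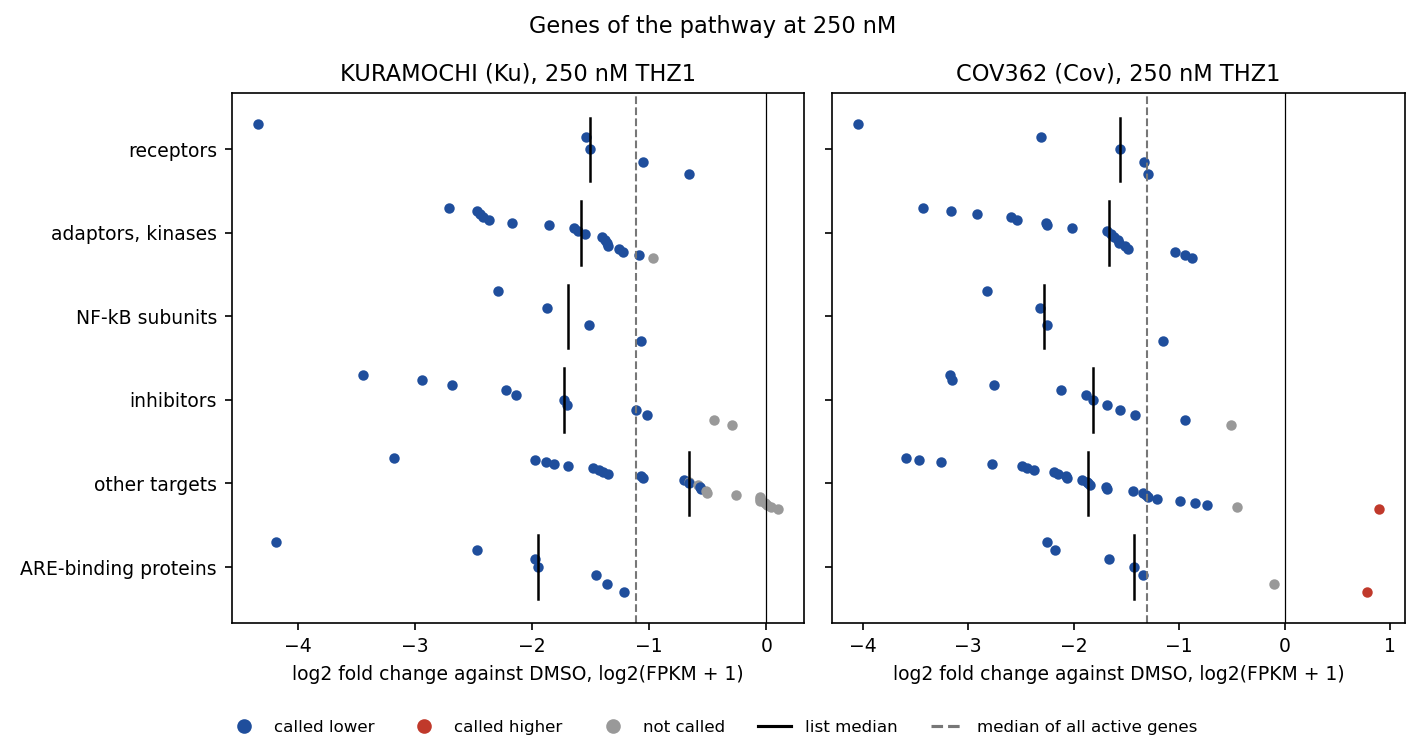
Log2 fold changes at 250 nM against DMSO, on the log2(FPKM + 1) scale, of the 72 active genes of 6 pathway lists in KURAMOCHI (left) and COV362 (right). Each point is a gene, blue if called lower, red if called higher and grey if not called, the black bar is the list median and the dashed line the median of all active genes. Points within a list are spread vertically for legibility. In KURAMOCHI 6 of the other targets were no higher than 0.490 FPKM in any library. The 2 red points are IER3 and ZFP36 in COV362.

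The active genes whose log2(FPKM + 1) followed TNF, CXCL2 and CXCL3 most closely were listed by Pearson r over the 6 libraries of a line, as a description without a p, since these libraries are 3 groups of 2. In Cov TNF was closest to CXCL3 (r = 0.965), CXCL2 (r = 0.961) and the AP-1 subunit gene JUNB (r = 0.959). CXCL2 in Cov was closest to GAS5-AS1 (r = 0.987), SNORA65 (r = 0.972) and TNF. CXCL3 was closest to FAM166A (r = 0.974), TNF and FOS (r = 0.944). The likeness of TNF, CXCL2 and CXCL3 in Cov restates how they were chosen. In Ku TNF was closest to OBP2A (r = 0.978), OMP (r = 0.964) and NNAT (r = 0.914). CXCL2 was closest to TCAM1P (r = 0.995), FKBP1A-SDCBP2 (r = 0.994) and LINC00641 (r = 0.994), among 123 active genes with r above 0.95. CXCL3 was closest to LOC100133985 (r = 0.98), LOC100288432 (r = 0.906) and CXCL8 (r = 0.905).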

How the data were processed

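Per the series record, the authors aligned reads to hg19 with HiSat and made the FPKM values with cuffquant and cuffnorm, normalized to ERCC spike-ins, before they deposited a table per line. Counts are not in those tables, so edgeR, used in the study, could not be run. A linear model per line, of 3 groups of 2 libraries, used log2(FPKM + 1) and trended empirical Bayes (limma 3.58.1, R 4.3.3). Adjusted p-values are Benjamini-Hochberg over active genes, those above 1 FPKM in at least 1 of 12 libraries. ERCC entries were left out. A further leukocyte marker is not reported here. Members and lists were chosen with earlier results of these data known. Named genes are the members, the NF-kB subunits, the ligand receptors, the markers, up to 3 active genes per list and line with the largest rise and fall at 250 nM, and the 3 most correlated with TNF, CXCL2 and CXCL3. NFKBIZ, TAX1BP1 and the genes beside TNF and the CXCL genes were named outside this rule, after their values were seen. With 2 libraries against 2 an exact permutation p cannot go below 0.33. Python 3.11.15 and matplotlib 3.10.9 made the figures.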

Additional observations from a re-analysis of the deposited data

Results flagged for a closer look

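Some values differed between the lines, and these differences were not tested. For CXCL2 at 250 nM the COV362 log2 difference, on which the gene was chosen, was 1.46 and that of KURAMOCHI −1.02, which are 2.47 apart. For CXCL3 at 50 nM they were 0.61 and −0.40, or 1.00 apart, and the COV362 value was 0.35 without THZ1 50 nM replicate 2. For ZFP36 at 250 nM they were 0.78 and −1.95, or 2.73 apart. The KURAMOCHI values of CXCL2 at 250 nM and of CXCL3 at 50 nM flip to positive with equal-median scaling.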

How the results depend on the processing

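Only 2 libraries per group limit every test, and depth is unknown. The scaling moved most results, and the cause was not tested. Of 100 log2 fold changes of named genes, 87 were tested and 13 were COV362 values without a test. Of the 87, 28 kept direction and call with equal-median scaling and 44 with median-of-ratios scaling. With a pseudocount of 0.1 this held for 86, with no minimum FPKM for 82, without the trend for 85, at an adjusted p under 0.05 for 78 and with a fit of the 2 groups compared for 84. With a minimum of 10 FPKM it held for 73 of the 75 that had a value, and on leaving out 1 library for 306 of 348. Of the 13 untested values, 4 flipped direction with equal-median scaling and 2 with median-of-ratios scaling, and the other 9 and 11 moved by more than 1 standard error. With a pseudocount of 0.1, 7 of them did so without a flip. On leaving out 1 library, 40 of 52 such values kept direction and size, 11 moved and 1 flipped. The lone library of a group was then assumed to vary like the other groups.

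With a replicate block 86 of the 87 kept direction and call, and pathway genes called higher in COV362 at 250 nM went from 2 to 1 as ZFP36 was lost. Deviations of same-numbered libraries correlated at −0.0703 to 0.0282, so the numbers were not used as pairs.

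In KURAMOCHI at 50 nM the 3 members called lower became 0 with no minimum FPKM, 0 with equal-median scaling, 1 with median-of-ratios scaling, 6 at an adjusted p under 0.05, 0 in a fit of the 2 groups and 0 to 0 on leaving out 1 library. Of all genes tested, 1607 were called lower, which became 3, 105 and 388 with the first 3 of these settings. That number was 5734 at an adjusted p under 0.05 and 9 in a fit of the 2 groups. Members higher went from 0 to 1 at an adjusted p under 0.05, where 88 of all 14251 active genes were called higher. The 12 pathway genes lower became 0, 0 and 1 with the first 3 of these, 7 without the trend, 32 at an adjusted p under 0.05, 0 in a fit of the 2 groups and 0 to 0 on leaving out 1 library. At 250 nM the 5 members lower became 2 with either scaling and 8 at an adjusted p under 0.05, and the 0 higher became 3 and 2 with equal-median and median-of-ratios scaling. The 57 pathway genes lower became 9 and 17, and the 0 higher became 16 and 7. At an adjusted p under 0.05, 11587 of all 14251 active genes were lower there. In COV362 at 50 nM the 6 members and the 58 pathway genes lower became 0 with either scaling, and the latter 33 to 56 on leaving out 1 library. At 250 nM the 67 pathway genes lower became 16 and 28, and the 2 higher became 10 and 5, or 1 to 1 on leaving out 1 library.

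Directions flipped with equal-median scaling as follows. In KURAMOCHI at 50 nM, CXCL3 was at 0.067, CCL20 at 0.33 and TNFAIP3 at 0.40. In KURAMOCHI at 250 nM, CXCL1 was at 0.44, CXCL2 at 0.56, CCL20 at 1.14, IL6 at 0.81, LIF at 0.88, LIFR at 0.29, IL6R at 0.11, IL6ST at 0.83, NFKB2 at 0.045, NFKB1 at 0.82, IER3 at 1.96, BIRC3 at 0.12, CXCL10 at 0.30 and HNRNPD at 0.52. In COV362 at 50 nM, CXCL1 was at 0.0013, CCL20 at 0.64, NFKBIA at 0.24 and TNFAIP3 at 0.22. In COV362 at 250 nM, CXCL1 was at 1.25, CCL20 at 0.43, LIF at 1.29, NFKBIA at 0.12, LIFR at 0.098, IL6ST at 0.40, REL at 0.40, CXCL5 at 0.45, CCL5 at 0.40, ZC3H12A at 1.54 and HNRNPD at 0.40.

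With median-of-ratios scaling, KURAMOCHI values at 50 nM were 0.18 for CCL20 and 0.27 for TNFAIP3. At 250 nM they were 0.14 for CXCL2, 0.62 for CCL20, 0.34 for IL6, 0.44 for LIF, 0.33 for IL6ST, 0.32 for NFKB1, 1.44 for IER3 and 0.078 for CXCL10. COV362 values at 50 nM were 0.46 for CCL20, 0.053 for NFKBIA and 0.032 for TNFAIP3. At 250 nM they were 0.81 for CXCL1, 0.85 for LIF, 0.057 for REL, 0.064 for CXCL5, 0.020 for CCL5 and 1.17 for ZC3H12A. With a pseudocount of 0.1, CCL5 was at −0.021 in KURAMOCHI at 250 nM.

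On leaving out 1 library, KURAMOCHI values at 250 nM went from −0.037 to 0.24 for CXCL8, from −0.017 to 0.093 for CXCL5, from −0.11 to 0.13 for CCL5 and from −0.088 to 0.073 for IER3. In COV362 at 50 nM CXCL2 went from −0.055 to 0.43.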

Other observations

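Genes beside TNF and the CXCL genes were looked at by position after the values were seen. Of 8 active genes within 50 kb of TNF, 4 were called lower in Ku and 6 in Cov at 250 nM and none higher, where 68.6% and 84% of all active genes were called lower. ATP6V1G2 and ATP6V1G2-DDX39B were called in neither line, and LTA and LST1 not in Ku. LTA did not exceed 0.18 FPKM in any Ku library. In Cov ATP6V1G2 did not exceed 0.431 and ATP6V1G2-DDX39B 0.629. These passed the filter only through the other line, so the counts out of 8 are not read against the shares of all active genes. LTB was at 61.3 and 64.0 FPKM in Ku DMSO and at 17.3 and 17.0 at 250 nM, and at 184 and 199 and then 62.0 and 79.1 in Cov. NFKBIL1 was at 17.1 and 16.7 and then 0.891 and 0.609 in Ku, and at 31.7 and 30.5 and then 5.24 and 5.16 in Cov. LTA was at 1.45 and 2.31 in Cov DMSO and at 0.251 and 0.525 at 250 nM. In the CXCL cluster CXCL6 was at 1.07 and 1.46 in Cov DMSO and at 0.8 and 0.498 at 250 nM, and PF4, PF4V1 and PPBP were not active. With equal-median scaling the log2 fold change at 250 nM was 0.11 for LTB in Ku, and 0.62 for LTB and 0.51 for CXCL6 in Cov, against −1.81, −1.44 and −0.46 on the spike-in scale. With median-of-ratios scaling the Cov values of LTB and CXCL6 were 0.16 and 0.30.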
